A study of Malus domestica with 18 samples.

Results

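Hsp20a and Hsp20b are the small heat shock protein genes of an RT-qPCR panel measured in embryonic axes of aged apple (Malus domestica Borkh., cv. Antonówka) seeds. They were taken by gene name and make up 2 of the 18 target genes, or 2 of 20 genes when the reference genes Sar1 and Pdi are counted. The values used here were all 18 samples, in 6 groups of 3 biological replicates. The groups were axes treated with nitric oxide (NO) and control axes after 7 days of aging, NO-treated and control axes after 14 days, and NO-treated and control axes after 21 days. Aging was done on the whole seed, at 33°C in moist sand. NO was then given to the isolated embryos as a 3 h fumigation with vapors of acidified nitrite, control embryos received no fumigation, and both were cultured for 48 h before the axes were cut off. Every group was therefore aged, and no group of seeds that had not been aged was analysed here. A sample pooled many axes, so that fewer cells with a transcript and less transcript per cell cannot be told apart, and the panel holds no gene that marks the axis, so the tissue label could not be checked.

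Small heat shock proteins are chaperones that bind unfolding proteins without using ATP and hold them in a state that can still be refolded. The refolding is done by other chaperones, the Hsp70 proteins together with ClpB (Hsp100) disaggregases. In plants such as Arabidopsis the cytosolic small heat shock proteins fall into classes, of which class I and class II are large ones, and they accumulate in maturing seeds as well as during heat stress.

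By the study's annotation the closest Arabidopsis protein is of class I for Hsp20a and of class II for Hsp20b. The amplicons are defined by the primers, which are shown because they decide which transcripts each value counts. Capitals mark the identical bases in the best matching stretch of 16 bases of the reverse primers:
Hsp20a forward: gagaggaagagggagcagga
Hsp20a reverse: agccgAAACcTCCTCgTGAAC
Hsp20b forward: tccaggtggaggacgacaa
Hsp20b reverse: cacAAACtTCCTCaTGAACttgc
The 2 reverse primers shared 14 of these 16 bases, while the other 189 pairs of reverse primers in the panel shared at most 12 and a median of 8. The forward primers of Hsp20a and Hsp20b shared 9 of 16 bases in their best stretch, and 31 of the other 189 forward pairs shared as many or more. The deposited table assigns 1 apple gene model to Hsp20a and 3 to Hsp20b, so a value of Hsp20b may be a sum over several gene copies, which could not be separated. No cross-amplification test was used here.

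The first measure is the quantification cycle (Cq), the PCR cycle at which the product passes a threshold, where a higher cycle means less template. Hsp20a was detected between cycles 24.8 and 27.9 and Hsp20b between 26.7 and 27.9, within the 19.8 to 30.8 of all genes. The second is relative expression as deposited, which is a ratio to the control of the same day after normalization to Sar1 and Pdi. Relative expression was compared with the mean cycle of Sar1 and Pdi minus the cycle of the gene, set to the controls of the same day. It followed this value closely, with a root mean square difference on the log2 scale of 0.0250 for Hsp20a and 0.00323 for Hsp20b. The effect of NO was tested on log2 relative expression with limma, fitted over the 18 target genes and all samples, and a gene was called when its Benjamini-Hochberg adjusted p was under 0.05. Overlap of sample ranges was read for Hsp20a and Hsp20b only. How often the groups of the other target genes were apart was not counted.

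Axes given NO had more Hsp20a than their controls after 14 days and less of it after 21 days, whereas Hsp20b was not called on relative expression at any day. After 7 days neither gene was called, where 33.3% of the 18 genes were called in either direction, 16.7% higher and 16.7% lower. The relative expression of Hsp20a was 0.850, 0.957 and 0.767 in NO-treated axes, against 1.15, 0.960 and 0.903 in control axes. The ranges overlapped, and the means of 0.858 ± 0.0953 with NO and 1.01 ± 0.131 in the control (SD, n = 3 each) gave a log2 fold change of -0.23 (95% interval -0.52 to 0.065, adjusted p = 0.167, limma). Hsp20b stood at 1.22, 1.17 and 0.874 in NO-treated axes and at 1.02, 0.902 and 1.09 in control axes. These samples also overlapped, with a log2 fold change of 0.10 (95% interval -0.17 to 0.38, adjusted p = 0.467, limma). Other normalizers of the cycles gave calls at this day, for Hsp20a lower with Pdi alone (-0.35, adjusted p = 0.0449, limma) and for Hsp20b higher with no reference gene (0.29, adjusted p = 0.0491, limma) or when centred on the mean of the target genes (0.26, adjusted p = 0.0460, limma). Of the 18 genes, 10, 10 and 11 were called at these settings.

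After 14 days of aging NO raised Hsp20a. Its relative expression was 2.54, 2.34 and 2.44 in NO-treated axes, against 1.10, 0.883 and 1.03 in control axes, so that every NO-treated sample lay well above every control. The mean was 2.44 ± 0.101 with NO and 1.004 ± 0.110 in the control (SD, n = 3 each), a log2 fold change of 1.29 (standard error 0.14, adjusted p = 3.3e-08, limma). It was the fourth in size among the 18 genes, of which 16.7% were called higher and 27.8% lower. Hsp20b was measured in the same RNA at 1.12, 1.11 and 1.08 with NO and at 1.10, 0.952 and 0.957 in control axes. Only the highest control reached into the narrow NO range, but the difference did not pass the test (log2 fold change 0.14, 95% interval -0.13 to 0.41, adjusted p = 0.392, limma).

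After 21 days the direction for Hsp20a was the opposite one. NO-treated axes had 0.573, 0.786 and 0.799, against 1.15, 0.928 and 0.934 in control axes. All NO-treated samples were below all controls, with means of 0.719 ± 0.127 with NO and 1.01 ± 0.129 in the control (SD, n = 3 each) and a log2 fold change of -0.49 (standard error 0.14, adjusted p = 0.00609, limma). At this day 27.8% of the 18 genes were called lower and 16.7% higher. The call was lost without NO replicate 1 (log2 fold change -0.34, adjusted p = 0.0561, limma) and, with all samples kept, in the methods' own test of the linear values, unadjusted or adjusted. When the levels were centred on the mean of the target genes the direction turned, to 0.026 (adjusted p = 0.823, limma). With this scaling of the cycles the median of all 18 genes was 0.33 at this day. It was -0.20 on the cycles with Sar1 and Pdi and -0.062 on relative expression. Hsp20b read 1.001, 1.08 and 0.894 with NO and 1.02, 1.12 and 0.875 in control axes. Its ranges lay on top of each other, and the log2 fold change was -0.015 (95% interval -0.29 to 0.26, adjusted p = 0.939, limma). With the same centring the change of Hsp20b turned to 0.52 and was called higher (adjusted p = 2.4e-04, limma), at a setting where 15 of the 18 genes were called.

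**Figure D1:**
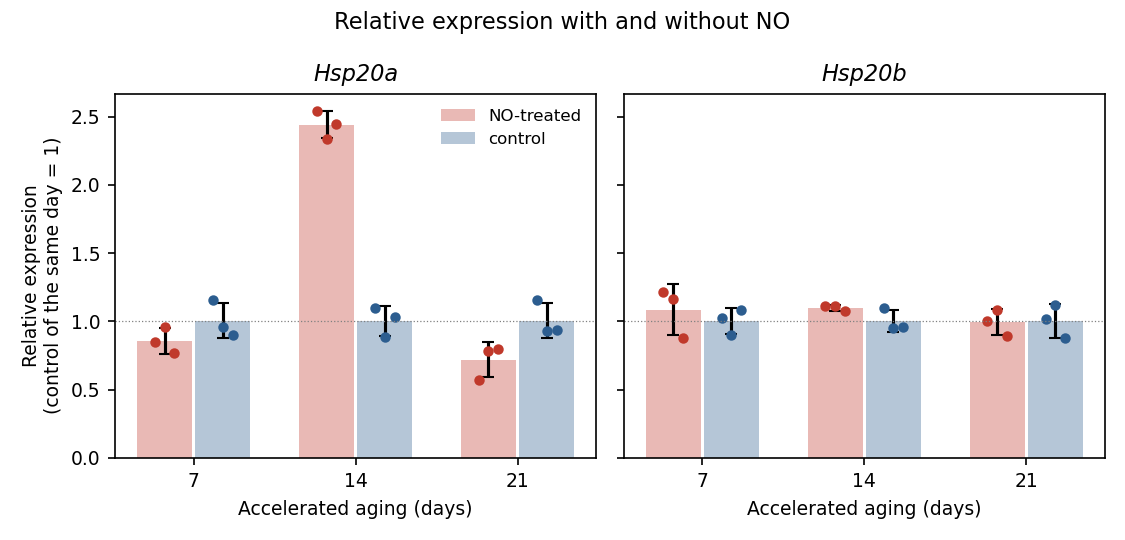
Relative expression (control of the same day about 1) against days of accelerated aging for Hsp20a (left panel) and Hsp20b (right panel), with points for samples, bars for means and error bars for SD (n = 3). The 3 NO-treated samples of Hsp20a at 14 days sit between 2.34 and 2.54, apart from all other samples, and those of Hsp20b stay within 0.874 and 1.22 at all days.

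The change of the NO effect with aging was tested directly as an interaction in the same fit. For Hsp20a the effect at 14 days exceeded that at 7 days by 1.51 on the log2 scale (standard error 0.20, adjusted p = 9.2e-07, limma), in a comparison where 61.1% of the genes were called. The effect at 21 days was below that at 14 days by a log2 difference of -1.78 (standard error 0.20, adjusted p = 6.4e-08, limma), where 50% were called. Between 21 and 7 days the effect on Hsp20a did not differ beyond its error (log2 difference -0.27, 95% interval -0.68 to 0.15, adjusted p = 0.349, limma), and 16.7% of the genes were called there. For Hsp20b none of the 3 differences was called, and they were 0.034 (95% interval -0.35 to 0.42), -0.12 (95% interval -0.50 to 0.26) and -0.15 (95% interval -0.54 to 0.23) for 14 minus 7, 21 minus 7 and 21 minus 14 days.

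**Figure D2:**
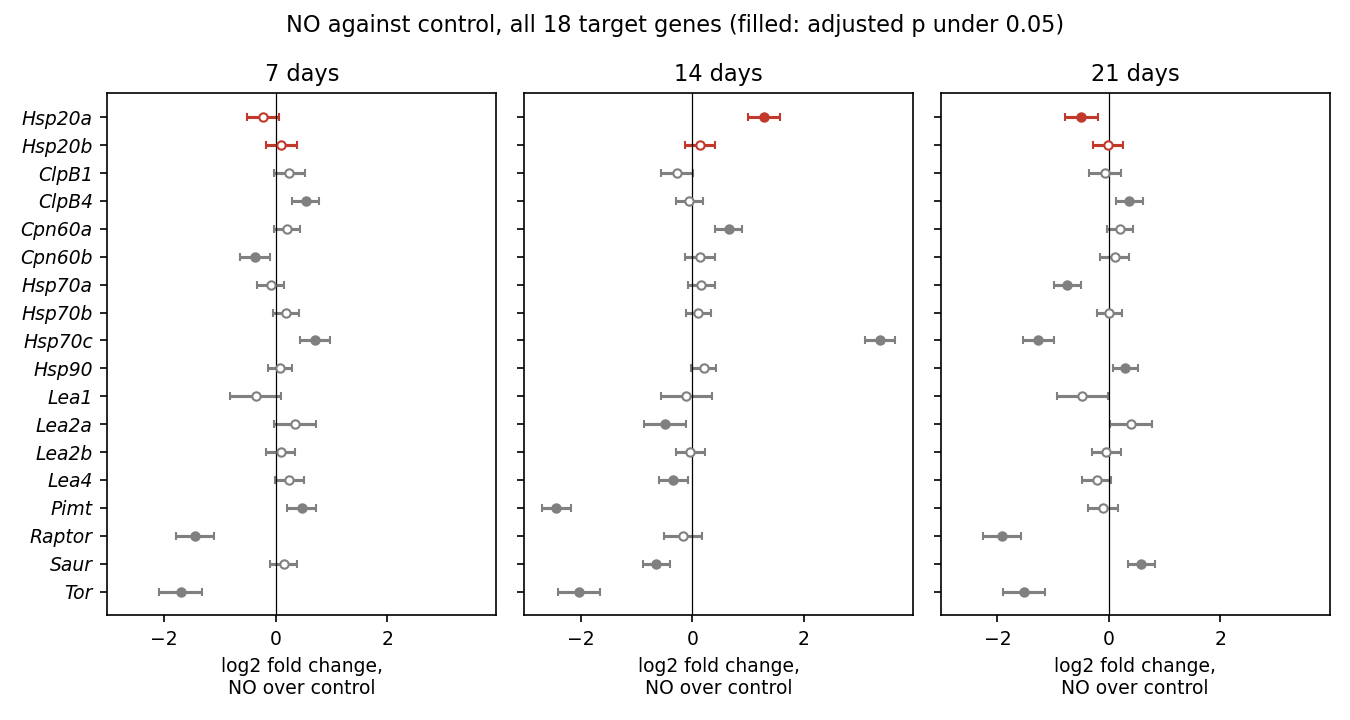
Log2 fold change of relative expression, NO over control, with its 95% interval for all 18 target genes at 7, 14 and 21 days of aging; Hsp20a and Hsp20b are in red at the top and filled points have an adjusted p under 0.05 in limma. Hsp20a is open at 7 days, filled at 1.29 at 14 days and filled at -0.49 at 21 days, while Hsp20b is open in all panels.

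Because relative expression is set to the control of each day, the course over aging was read from the cycles. The cycle of the gene was subtracted from the mean cycle of Sar1 and Pdi in the same sample, and the resulting level, at 1 doubling per cycle, was set to 1 at the mean log2 level of the 7-day controls. The reference genes themselves appeared later in aged axes. Their mean cycle was higher at 14 than at 7 days by 0.813 cycles in NO-treated axes and by 0.726 cycles in control axes, and at 21 than at 7 days by 0.683 cycles in NO-treated axes and by 0.504 cycles in control axes. These shifts enter every level across days, so calls were also made with Sar1 alone, with Pdi alone, with no reference gene and centred on the mean of the target genes.

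In control axes Hsp20a fell with aging. Its cycles were 24.78, 24.80 and 25.11 at 7 days, 26.73, 27.12 and 27.00 at 14 days and 27.07, 27.33 and 27.32 at 21 days. As levels these were 1.16, 0.961 and 0.899 at 7 days, 0.439, 0.349 and 0.410 at 14 days and 0.323, 0.259 and 0.260 at 21 days. Each day lay below the one before it with no overlap of the levels, although in cycles the 14-day and 21-day samples overlapped. The mean level was 0.399 ± 0.0458 at 14 days and 0.281 ± 0.0364 at 21 days, against 1.01 ± 0.134 at 7 days (SD, n = 3 each). The interval of the log2 fold change ran from -1.63 to -1.03 at 14 days and from -2.14 to -1.54 at 21 days, both against 7 days (adjusted p = 6.7e-09 and 8.3e-12, limma). By size these changes of Hsp20a were the third and the second of the 18 genes, where 38.9% of the genes were called lower at 14 days and 50% at 21 days. The step between 14 and 21 days was smaller, with a log2 fold change of -0.51 (95% interval -0.81 to -0.21, adjusted p = 0.00240, limma), in a comparison where 50% of the genes were called lower, and it no longer passed with Pdi alone (-0.32, adjusted p = 0.0516, limma) or on a deposited scale set to the 7-day control (-0.28, adjusted p = 0.0654, limma).

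In NO-treated axes the fall of Hsp20a came between 14 and 21 days. The cycles were 24.95, 24.86 and 25.00 at 7 days, 25.47, 25.62 and 25.43 at 14 days and 27.87, 27.77 and 27.58 at 21 days. As levels these were 0.846, 0.956 and 0.763 at 7 days, 1.05, 0.961 and 1.01 at 14 days and 0.157, 0.216 and 0.221 at 21 days. Here the 14-day samples were just above the 7-day ones, and the 21-day samples lay far below both. Means were 0.855 ± 0.0969 at 7 days, 1.01 ± 0.0457 at 14 days and 0.198 ± 0.0353 at 21 days (SD, n = 3 each). At 14 against 7 days the change was not called (log2 fold change 0.24, 95% interval -0.057 to 0.54, adjusted p = 0.149, limma), and other normalizers called it in either direction, lower with no reference gene (-0.57, adjusted p = 1.8e-04, limma) and higher with Pdi alone (0.62, adjusted p = 4.0e-04, limma) or centred (0.49, adjusted p = 7.1e-04, limma). At these settings 17, 13 and 15 of the 18 genes were called. The level at 21 days was below that at 7 days by a log2 fold change of -2.12 and below that at 14 days by one of -2.37 (standard error 0.15 for both, adjusted p = 2.0e-13 and 2.1e-14, limma). In these 2 comparisons 55.6% and 61.1% of the 18 genes were called lower, and Hsp20a had the third and the second largest change.

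Hsp20b varied little and was highest at 14 days with either treatment. In control axes its cycles were 27.27, 27.21 and 27.16 at 7 days, 27.26, 27.53 and 27.63 at 14 days and 27.73, 27.53 and 27.88 at 21 days. As levels in these control axes they were 1.02, 0.901 and 1.09 at 7 days, 1.52, 1.31 and 1.32 at 14 days and 1.02, 1.13 and 0.877 at 21 days. All 14-day levels exceeded those of the other days, which overlapped, but the cycles of Hsp20b itself were no earlier at 14 than at 7 days, while those of Sar1 and Pdi were later. The log2 fold change at 14 against 7 days was 0.47 (95% interval 0.18 to 0.75, adjusted p = 0.00372, limma), where 38.9% of the genes were called higher. At 21 days the level did not differ beyond its error from that at 7 days (log2 fold change 0.0014, 95% interval -0.28 to 0.28, adjusted p = 0.992, limma) and was lower than at 14 days (log2 fold change -0.46, 95% interval -0.75 to -0.18, adjusted p = 0.00300, limma). The call at 14 days was lost with Sar1 alone (0.34, adjusted p = 0.0784, limma) and its direction turned with no reference gene (-0.26, adjusted p = 0.0535, limma). At 21 against 7 days Hsp20b was called lower with no reference gene (-0.50, adjusted p = 9.0e-04, limma) and higher with Pdi alone (0.33, adjusted p = 0.0492, limma) or centred (0.47, adjusted p = 6.4e-04, limma). The fall at 21 against 14 days was no longer called with Pdi alone (-0.27, adjusted p = 0.0924, limma) or with no reference gene (-0.24, adjusted p = 0.0674, limma), so its course over aging depended on the normalizer.

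NO-treated axes gave nearly the same course of Hsp20b. The cycles were 26.75, 26.89 and 27.13 at 7 days, 27.23, 27.26 and 27.19 at 14 days and 27.51, 27.77 and 27.88 at 21 days. Levels were 1.21, 1.16 and 0.871 at 7 days, 1.55, 1.53 and 1.49 at 14 days and 1.0004, 1.08 and 0.893 at 21 days. Here the 14-day samples were again above the others, and those of 7 and 21 days overlapped. At 14 against 7 days the log2 fold change was 0.51 (95% interval 0.22 to 0.79, adjusted p = 0.00172, limma), with 22.2% of the genes called higher and 44.4% lower, and at 21 against 14 days it was -0.62 (95% interval -0.91 to -0.34, adjusted p = 1.4e-04, limma), with 61.1% called lower. At 21 against 7 days it was -0.12 (95% interval -0.40 to 0.17, adjusted p = 0.437, limma), but it was called lower with no reference gene (-0.80, adjusted p = 5.5e-06, limma) or Sar1 alone (-0.45, adjusted p = 0.0154, limma) and higher when centred (0.73, adjusted p = 3.6e-06, limma). Without a reference gene the change of Hsp20b at 14 against 7 days turned to -0.31 (adjusted p = 0.0219, limma), with Sar1 alone it was 0.13 (adjusted p = 0.485, limma), and centred on the target genes that at 21 against 14 days was no longer called (-0.023, adjusted p = 0.839, limma).

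**Figure D3:**
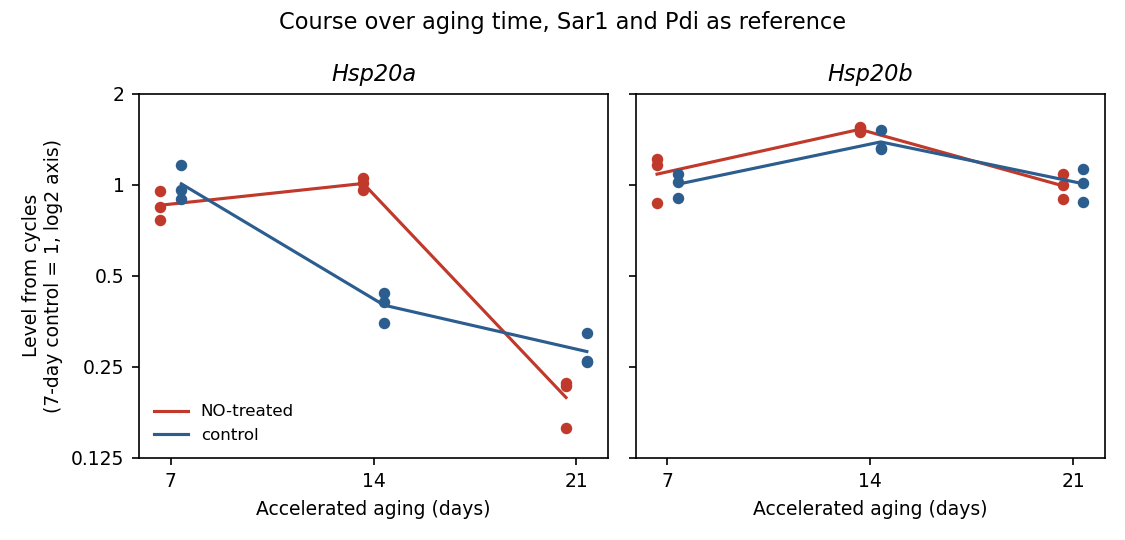
Level from the cycles with Sar1 and Pdi as reference (7-day control = 1, log2 axis) against days of accelerated aging for Hsp20a and Hsp20b, with points for samples and lines through the group means (n = 3). Hsp20a in NO-treated axes is at 1.01 at 14 days and 0.198 at 21 days, against 0.399 and 0.281 in control axes, whereas the lines of Hsp20b run close together.

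A deposited set of values for the control axes is scaled to the 7-day control. On that scale Hsp20a was 0.254 ± 0.0278 at 14 days and 0.210 ± 0.0270 at 21 days, and Hsp20b was 0.837 ± 0.0697 and 0.709 ± 0.0875 (SD, n = 3 each). The corresponding log2 changes from 7 days were -1.98 and -2.26 for Hsp20a, close to those of the cycles with no reference gene (-2.06 and -2.35). For Hsp20b they were -0.26 and -0.50, the same as the cycles gave with no reference gene, so the deposited 7-day scale and the level with Sar1 and Pdi differ for both genes by about the shift of the reference genes. Hsp20a fell on either scale, and Hsp20b did not keep its direction.

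Ordered by mean level, the groups of Hsp20a formed an upper set of NO-treated axes at 14 days, control axes at 7 days and NO-treated axes at 7 days, in which neighbours overlapped. Below it came control axes at 14 days, control axes at 21 days and NO-treated axes at 21 days, each separate from its neighbour. The highest and the lowest group mean were thus both of NO-treated axes, 2.37 apart on the log2 scale, or 5.15-fold. For Hsp20b the upper set was NO-treated and control axes at 14 days, which overlapped, and the other 4 groups all overlapped with their neighbours in the order. Its highest and lowest group means, also NO-treated axes at 14 and at 21 days, were 0.62 apart on the log2 scale, or 1.54-fold. By this span Hsp20a ranked 6 and Hsp20b ranked 18 of the 18 target genes.

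The paralogs were set against each other by the cycle of Hsp20b minus the cycle of Hsp20a in the same sample, which needs no reference gene. The size of this difference depends on the primers and gives no ratio of transcripts, but its change between groups is the change of log2 of Hsp20a over Hsp20b. The differences were 1.80, 2.03 and 2.13 cycles in NO-treated axes at 7 days, against 2.50, 2.41 and 2.05 cycles in control axes. At 14 days they were 1.76, 1.64 and 1.76 cycles in NO-treated axes, against 0.527, 0.407 and 0.630 cycles in control axes. At 21 days they were -0.353, -0.0067 and 0.300 cycles in NO-treated axes, against 0.663, 0.197 and 0.565 cycles in control axes. Hsp20a thus came up earlier than Hsp20b in every sample but 2 of the NO-treated axes at 21 days, and NO-treated and control samples were fully apart only at 14 days.

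The change in this difference was tested with limma over all 153 pairs of target genes. With NO, Hsp20a over Hsp20b was higher at 14 days (log2 difference 1.20, 95% interval 0.85 to 1.55, adjusted p = 8.9e-07, limma) and lower at 21 days (log2 difference -0.50, 95% interval -0.84 to -0.15, adjusted p = 0.0118, limma), and it was not called at 7 days (log2 difference -0.33, 95% interval -0.68 to 0.016, adjusted p = 0.0838, limma). Most pairs of this panel moved, and the share called was 66.7% at 7 and at 14 days and 73.9% at 21 days. The pair's call at 21 days was lost without control replicate 1 (adjusted p = 0.0651) or NO replicate 1 (adjusted p = 0.101) of that day, and at 7 days the pair was called without control replicate 3 (adjusted p = 0.0297). In an exact permutation test of the pair alone, exchange of NO and control within days over all 3 days gave p = 0.005 (0.0075 adjusted over 3 tests of this kind). Its statistic was the sum of squared differences, so it tests no direction and no single day. The two-sided permutation tests of single days, of 3 against 3, cannot go below p = 0.1 and gave 0.2, 0.1 and 0.2 at 7, 14 and 21 days.

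Over aging Hsp20a fell relative to Hsp20b, in control axes by 14 days and in NO-treated axes by 21 days. The log2 of Hsp20a over Hsp20b changed in control axes by -1.80 at 14 against 7 days (adjusted p = 1.4e-09, limma) and by -0.046 at 21 against 14 days (95% interval -0.39 to 0.30, adjusted p = 0.800, limma). In NO-treated axes it changed by -0.26 at 14 against 7 days (95% interval -0.61 to 0.085, adjusted p = 0.148, limma) and by -1.74 at 21 against 14 days (adjusted p = 1.4e-09, limma). In the control axes 79.1% and 83.7% of the pairs were called in these steps, and in NO-treated axes 80.4% and 88.9%. The difference in timing was itself called, with an interaction of 1.53 at 14 minus 7 days (standard error 0.24, adjusted p = 5.2e-06, limma) and of -1.70 at 21 minus 14 days (standard error 0.24, adjusted p = 8.8e-07, limma), in comparisons where 72.5% and 73.9% of the pairs were called. By 21 days the change from 7 days was -2.01 in NO-treated and -1.84 in control axes, and these did not differ beyond their error (interaction -0.16, adjusted p = 0.588, limma), where 85.6% and 79.1% of the pairs were called for the changes and 45.8% for the interaction. An exact permutation of days over the 3 times, on the between-day sum of squares, gave p = 0.00357 in NO-treated axes, the smallest possible, and p = 0.0321 in control axes. It tests no direction and no single day.

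**Figure D4:**
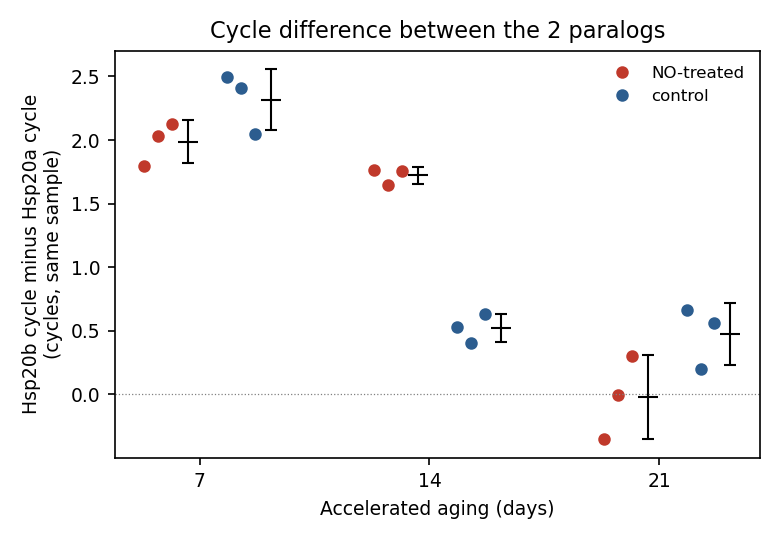
Cycle of Hsp20b minus cycle of Hsp20a in the same sample against days of accelerated aging, with points for samples and black bars for mean and SD (n = 3). NO-treated axes stay at 1.72 cycles at 14 days, where control axes are at 0.521, and at 21 days no sample of either treatment exceeds 0.663 cycles.

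The other chaperone genes of the panel were 8, namely Hsp90, the Hsp70 genes Hsp70a, Hsp70b and Hsp70c, the disaggregase genes ClpB1 and ClpB4, and Cpn60a and Cpn60b, which encode chaperonins. With NO, 2 of the 8 were higher and 1 lower at 7 days, 2 higher and 0 lower at 14 days, and 2 higher and 2 lower at 21 days, by limma on relative expression. Of all 18 genes, 3 were higher and 3 lower at 7 days, and 3 higher and 5 lower at 14 days and again at 21 days. Counted on levels, the 8 gave 3 higher and 1 lower at 7 days and 2 higher and 0 lower at 14 days. At 21 days they gave 1 higher and 3 lower on levels. Of the 18 genes, 8, 8 and 10 were called on levels at 7, 14 and 21 days. Relative expression of Hsp70b departs from its cycles by a root mean square difference of 1.09 on the log2 scale. This difference was 0.234 for Cpn60b, 0.219 for Cpn60a and 0.219 for Hsp90, and at most 0.0284 for Hsp70a, Hsp70c, ClpB1 and ClpB4. On relative expression the median log2 fold change of the 8 was 0.19, 0.15 and 0.055 at these days, against 0.12, -0.045 and -0.062 over all 18 genes. Hsp70c had called changes in the same directions as Hsp20a at 14 days (log2 fold change 3.37, adjusted p = 3.0e-16, limma) and at 21 days (log2 fold change -1.26, adjusted p = 3.0e-08, limma), and at 7 days it was also higher (log2 fold change 0.70, adjusted p = 1.6e-04, limma), where Hsp20a was not called. Without NO replicate 2 or without control replicate 2 of 21 days, 0 of the 8 were higher at that day, where 6 and 7 of the 18 genes were called. Centred on the target genes 5 of the 8 were higher and 3 lower, where 15 of the 18 genes were called. ClpB4 was higher with NO at 21 days (log2 fold change 0.37, adjusted p = 0.0126, limma), when Hsp20a and Hsp70c were lower. Cpn60a was called higher at 14 days (log2 fold change 0.65, adjusted p = 3.4e-05, limma) and Hsp70a lower at 21 days (log2 fold change -0.75, adjusted p = 9.5e-06, limma).

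Over aging in control axes, 4 of the 8 chaperone genes were higher and 3 lower at 14 against 7 days, and 3 were higher and 4 lower at 21 against 7 days. Of all 18 genes 38.9% were called higher and 38.9% lower at 14 days, and 22.2% higher and 50% lower at 21 days. With no reference gene the counts of the 8 were 0 higher and 5 lower at 14 days, and 1 higher and 5 lower at 21 days. At this setting 14 of the 18 genes were called in either direction at 14 days, and 14 at 21 days. Hsp70c, Cpn60b and Cpn60a were lower at 14 days in control axes, as Hsp20a was, with log2 fold changes of -4.64, -1.39 and -1.28 (adjusted p = 3.6e-22, 6.0e-09 and 8.0e-09, limma). At 21 against 14 days, when Hsp20a and Hsp20b were both called lower with Sar1 and Pdi, Hsp70c rose again in control axes (log2 fold change 1.68, adjusted p = 2.8e-11, limma). In NO-treated axes 2 of the 8 were higher and 5 lower at 14 against 7 days, where 22.2% of all 18 genes were higher and 44.4% lower, and 2 were higher and 6 lower at 21 against 14 days, where 33.3% of all were higher and 61.1% lower. Hsp70b is among those lower in both counts, and its deposited relative expression departs from its cycles by a root mean square difference of 1.09 on the log2 scale. Their median log2 fold change at 21 against 14 days was -0.92 in NO-treated axes, with -0.73 over all 18 genes, and Hsp20a with -2.37 fell further than both medians while Hsp20b with -0.62 did not.

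Over the 18 samples, the levels most like that of Hsp20a were those of Hsp70c (Pearson r = 0.83, Spearman rho = 0.63), Lea1 (r = 0.81, rho = 0.78) and Lea4 (r = 0.74, rho = 0.51), and the least like was Lea2b (r = -0.67, rho = -0.66). Lea genes encode late embryogenesis abundant proteins, which protect cell structures in dry seeds. Most like Hsp20b were ClpB1 (r = 0.65, rho = 0.73), Hsp70a (r = 0.62, rho = 0.50) and Hsp90 (r = 0.62, rho = 0.67), and least like it was Saur (r = -0.75, rho = -0.66), a gene of the auxin-responsive SAUR family. Hsp20a and Hsp20b were correlated with each other at r = 0.34 (rho = 0.44). The samples form 6 groups and share the same reference genes at each point, so these values describe the group pattern, and some of them changed much without a reference gene. The r without it was 0.85 for Hsp20a with Hsp20b, -0.066 for Hsp20b with Hsp90, 0.21 for Hsp20b with Hsp70a, 0.20 for Hsp20b with Saur and 0.11 for Hsp20a with Lea2b. For Hsp20a with Hsp70c, Lea1 and Lea4 it was 0.91, 0.86 and 0.84, and for Hsp20b with ClpB1 it was 0.86, below the 0.88 of ClpB4. High values without a reference gene were not particular to pairs alike on levels. Hsp20b with Hsp70c had r = -0.11 on levels and 0.77 without a reference gene.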

How the data were processed

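Transcripts were measured by RT-qPCR with SYBR Green in 18 samples, from cDNA of 200 ng total RNA, over 40 PCR cycles. The authors deposited Cq values, which are in cycles, and relative expression, which is a ratio (fold of the control) normalized to 2 reference genes. A further deposited ratio scales control axes to the 7-day control. The methods name normalization to the reference genes, but for Hsp20a and Hsp20b these values followed the cycles with no reference gene. A deposited table of the authors' own fold changes and tests was not used. The number of replicates, 3 per group, limits the precision. Samples were grouped by the labels, and the methods call them biological replicates.

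Log2 relative expression and re-derived levels (mean Cq of Sar1 and Pdi minus Cq of the gene, amplification 2 per cycle) were fitted with limma 3.58.1 in R 4.3.3, with group means over all samples and Benjamini-Hochberg adjustment over 18 genes, or 153 gene pairs, per contrast. Tests were two-sided, apart from the permutation tests over 3 days, which have no direction, and intervals are 95% without adjustment. Scripts were tested on simulated data. Exact permutation tests and figures used Python 3.11.15 (NumPy 2.4.6, matplotlib 3.10.9).

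The members, the list of 8 chaperone genes and the tests were chosen with earlier results of these data known. Other genes were named when they belonged to the chaperone list and were called (at most 3 a comparison, by size), or were the 3 most or the 1 least correlated with a member. Primers came from the study's supplementary table, where none of the apple gene models given for either gene matched the RefSeq gene table used here. Alternatives were other reference genes, 1.9 amplification per cycle, linear values, the methods' own tests, a replicate block and leaving out each sample.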

Additional observations from a re-analysis of the deposited data

Results flagged for a closer look

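The effect of NO on Hsp20a differed between aging times by a test of the difference itself, by 1.51 on the log2 scale at 14 minus 7 days and by -1.78 at 21 minus 14 days (limma, adjusted p = 9.2e-07 and 6.4e-08). The effect of NO on Hsp20a over Hsp20b differed in the same way, by 1.53 at 14 minus 7 days and by -1.70 at 21 minus 14 days (limma, adjusted p = 5.2e-06 and 8.8e-07). For Hsp20a the 3 NO-treated samples all lay above the controls at 14 days and all below them at 21 days, while at 7 days the samples overlapped. How many of the other target genes were apart in this way was not counted.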

How the results depend on the processing

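Adding the replicate block left all 36 results on the same side of the threshold (Hsp20a with NO at 14 days, log2 fold change 1.29). Same-numbered samples correlated above 0.1 in 17 of 27 pairs on relative expression (-0.45 to 0.74) and in 19 of 27 on levels (-0.70 to 0.78). On levels all 3 pairs did so in control axes at 21 against 7 and 14 days and in NO-treated axes at 21 against 7 days, but not in the other comparisons, so the numbers were not taken to pair samples. Fits on the compared groups only and without moderation also left all 36, and 1.9 amplification per cycle left all 12 it applied to. Under every alternative run Hsp20a kept its call with NO at 14 days, in control axes at 14 and 21 against 7 days and in NO-treated axes at 21 against 7 and 14 days.

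The reference gene decided most of the rest, on the log2 scale. With Sar1 alone, Hsp20b had 0.090 with NO at 21 days, 0.34 and -0.32 in control axes at 14 and 21 against 7 days, 0.13 and -0.45 for the same in NO-treated axes, and NO effect differences of -0.20 (14 minus 7 days) and 0.079 (21 minus 14 days), while Hsp20a had -0.13 in NO-treated axes at 14 against 7 days. With Pdi alone, NO at 7 days gave -0.35 for Hsp20a (now called) and -0.016 for Hsp20b, control axes at 21 against 14 days gave -0.32 for Hsp20a and -0.27 for Hsp20b, Hsp20b at 21 against 7 days had 0.21 in NO-treated and 0.33 in control axes, and Hsp20a in NO-treated axes at 14 against 7 days had 0.62. With no reference gene, Hsp20b had 0.29 with NO at 7 days, -0.26, -0.50 and -0.24 in control axes at 14 against 7, 21 against 7 and 21 against 14 days, -0.31 and -0.80 in NO-treated axes at 14 and 21 against 7 days and -0.046 for the NO effect at 14 minus 7 days; Hsp20a had -0.57 in NO-treated axes at 14 against 7 days and -0.46 for the NO effect at 21 minus 7 days. Centred on the target genes, Hsp20b had 0.26 and 0.52 with NO at 7 and 21 days, 0.47 in control axes and 0.73 in NO-treated axes at 21 against 7 days, -0.023 in NO-treated axes at 21 against 14 days, and NO effect differences of -0.047, 0.26 and 0.30 at 14 minus 7, 21 minus 7 and 21 minus 14 days; Hsp20a had 0.026 with NO at 21 days, 0.49 in NO-treated axes at 14 against 7 days and 0.094 for the NO effect at 21 minus 7 days.

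On the deposited 7-day scale Hsp20b had -0.26, -0.50 and -0.24 in control axes at 14 against 7, 21 against 7 and 21 against 14 days, and Hsp20a had -0.28 at 21 against 14 days. With the methods' own test across days the linear differences were -0.166, -0.294 and -0.127 for Hsp20b and -0.0443 for Hsp20a (21 against 14 days). The methods' own test gave Hsp20a with NO at 21 days a linear difference of -0.286, which passed the threshold neither unadjusted nor adjusted over the 18 genes. The cause of these changes was not tested beyond the reference gene itself.

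Leaving out each sample in turn moved Hsp20a with NO at 21 days between -0.58 and -0.34. The range was -0.11 to 0.068 for Hsp20b with NO at 21 days, -0.083 to 0.096 for Hsp20b in control axes at 21 against 7 days and -0.12 to 0.12 for its NO effect at 14 minus 7 days. For Hsp20a over Hsp20b it was -0.47 to -0.24 with NO at 7 days, -0.66 to -0.33 with NO at 21 days, -0.14 to 0.093 in control axes at 21 against 14 days and -0.32 to 0.0039 for the NO effect at 21 minus 7 days. The other 28 results kept their call and direction without any 1 sample. The 3 samples a group limit the precision of all values. Of the 18 genes, 6 were called with NO at 7 days, against 10 with Pdi alone or no reference gene and 11 when centred, and 8 at 21 days, against 15 when centred. The NO effect at 21 minus 7 days was called for 3 genes, against 5 when re-derived with Sar1 and Pdi or with Pdi alone, 10 with no reference gene, 8 when centred, 6 with the replicate block, and up to 6 with 1 sample left out, none of them Hsp20a or Hsp20b except Hsp20a with no reference gene.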
